A study of Bubalus bubalis with 6 samples.

Results

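The genes described here are the 4 myogenic regulatory factors (MRFs), MYF5, MYOD1, MYOG and MYF6, and the PAX genes of muscle, PAX7 and PAX3. They were taken from the gene table by symbol, and all 6 were found among 24616 listed genes. All 6 also reached the minimum of 10 counts over the 6 samples and were among the 15576 genes tested. The sequenced cells were primary muscle stem cells (MuSCs) of the water buffalo (Bubalus bubalis), isolated with type I collagenase and trypsin from fetal longissimus muscle. The 3 GM samples were proliferating MuSCs in growth medium, high-glucose DMEM with fetal bovine serum. The 3 DM samples were MuSCs moved to differentiation medium, DMEM with a low level of horse serum, once they were nearly confluent. No cell was genetically altered, and the labels give neither the day of harvest nor the animal behind each sample. They also do not say whether samples were separate cultures, so p-values measure only the spread between these samples, which may be technical.

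The MRFs are basic helix-loop-helix transcription factors that bind E-box sequences as partners of the widely expressed E proteins and switch on muscle genes. In skeletal muscle, PAX3 and PAX7 are paired-box factors of progenitors and satellite cells, MYF5 and MYOD1 set the myoblast identity, MYOG drives the entry into terminal differentiation, and MYF6 (MRF4) is a late factor of differentiating fibers that also acts in early embryonic progenitors. The comparison of DM with GM samples asks how this set is expressed when buffalo MuSCs leave proliferation for myogenic differentiation.

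Counts on genes came to between 36657735 and 40305237 per GM sample and between 35615864 and 38177614 per DM sample. Levels of one gene across samples are given in counts per 1000000 counts (CPM) on TMM-scaled library sizes, and levels of different genes are compared only per length, in the deposited RPKM. A gene was called where the absolute log2 fold change of DM over GM was above 1 and the Benjamini-Hochberg adjusted p from the edgeR quasi-likelihood test was under 0.05. DM replicate 3 stood apart from the other DM samples, with root mean square differences of 0.629 and 0.625 in log2 CPM from DM replicates 1 and 2, against 0.427 to 0.438 between all other pairs of one group. The 8 proliferation markers, which include MKI67 and MCM7, had sums of 2364 to 2405 CPM in GM samples against 506 to 576 CPM in DM samples. All 8 were called lower, where 10.3% of all tested genes were.

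The MRFs did not move as a block. MYF5 fell, MYOG and MYF6 rose, and MYOD1 was higher in DM samples by less than the fold minimum. Both PAX genes were lower in DM samples, PAX7 by less than the fold minimum and PAX3 from a trace to no counts. Thus 2 of the 6 genes were called higher, where 15.0% of all tested genes were, and 2 were called lower, where 10.3% were. At any fold, the adjusted p of edgeR was under 0.05 for 3 of the 6 with higher and 3 with lower values in DM samples, against 31.6% and 31.4% of tested genes. The DM samples lay wholly above the GM samples for MYF6, MYOD1 and MYOG, as for 34.5% of tested genes, and wholly below them for MYF5, PAX7 and PAX3, as for 34.3%. Because the samples are bulk RNA, a change in the number of cells that express a gene and a change in its RNA per cell cannot be told apart.

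**Figure D1:**
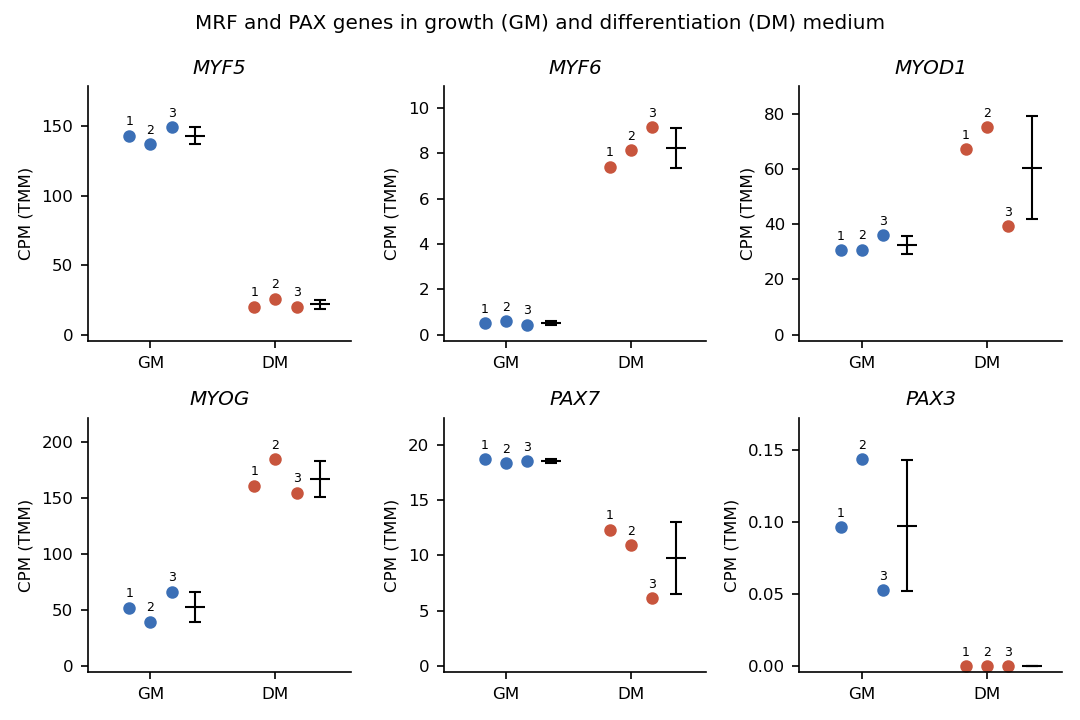
Level of each of the 6 genes in CPM on TMM-scaled library sizes (y axis, a separate linear scale per gene) in the 3 GM and 3 DM samples, numbered by replicate, with the mean ± SD of each group beside the points. MYF5 ran from 137 to 149 CPM in GM samples and from 20.0 to 25.8 CPM in DM samples, whereas MYF6, MYOD1 and MYOG were higher in DM samples, and DM replicate 3 was the lowest of its group for MYOD1 at 39.3 CPM and for PAX7 at 6.11 CPM.

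Of the factors that set the myoblast identity, MYF5 (ENSBTAG00000026972, chromosome 5, 10339425 to 10342660, plus strand) was the most abundant of the 6 per length in proliferating cells. Positions are those of the deposited tables, which list cattle (Bos taurus) Ensembl genes and name no genome build. MYF5 held 5939, 5685 and 5665 counts in GM replicates 1, 2 and 3, which is 143, 137 and 149 CPM. In DM replicates 1, 2 and 3 it held 674, 946 and 747 counts, or 20.0, 25.8 and 20.2 CPM. The groups were far apart, and the lowest GM sample stood above every DM sample. MYF5 fell from a mean of 143 ± 6.38 CPM to 22.0 ± 3.34 CPM (SD, n = 3), so that the mean was 6.50-fold higher in GM samples. The log2 fold change was -2.70 (SE 0.10, adjusted p = 1.02e-08 from edgeR), and 1.71% of tested genes had a smaller one. MYF5 transcripts were still measured in each DM sample, at RPKM levels above those of at least 72.4% of genes.

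MYOD1 (ENSBTAG00000002216, chromosome 15, 35331401 to 35334046, minus strand), the other factor of myoblast identity, was present under both conditions. It held 1271, 1283 and 1369 counts in GM replicates 1, 2 and 3, or 30.6, 30.8 and 36.1 CPM. DM replicates 1, 2 and 3 held 2270, 2745 and 1455 counts, or 67.2, 75.0 and 39.3 CPM. The DM samples were all higher, but DM replicate 3 lay close to the highest GM sample and far below the other two. Group means were 32.5 ± 3.10 CPM in GM samples and 60.5 ± 18.8 CPM in DM samples, a 1.86-fold difference with a log2 fold change of 0.90 (SE 0.19, adjusted p = 0.00202 from edgeR). The fold minimum was therefore not reached, and MYOD1 was not called. The coefficient of variation of its DM samples was 31.0%, where counting alone would give 2.15%. Without DM replicate 3 the log2 fold change was 1.14 (SE 0.08, adjusted p = 1.08e-12 from edgeR), which passed both thresholds. The adjusted p of MYF5, MYF6, MYOG and PAX7 also fell in that fit, while that of PAX3 rose. For MYF6 the edgeR value went from 5.87e-08 to 5.42e-15 although the SE rose from 0.20 to 0.22. The smaller p is therefore not particular to MYOD1.

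MYOG (ENSBTAG00000006030, chromosome 16, 596920 to 599757, minus strand), the factor of terminal differentiation, was already well expressed in growth medium. GM replicates 1, 2 and 3 held 2170, 1662 and 2524 counts, or 52.3, 39.9 and 66.6 CPM. The corresponding DM samples held 5446, 6755 and 5743 counts, or 161, 185 and 155 CPM. No DM sample came near the GM range, although the GM samples themselves varied by 25.2% (coefficient of variation) where counting alone would give 2.17%. Mean CPM was 52.9 ± 13.3 in GM and 167 ± 15.5 in DM, so MYOG rose 3.16-fold, by 1.66 on the log2 scale (SE 0.15, adjusted p = 4.28e-06 from edgeR). A larger log2 fold change was found for 10.1% of tested genes.

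MYF6 (ENSBTAG00000014003, chromosome 5, 10330469 to 10331983, plus strand), the late MRF, had the largest rise of the 6 genes. It was near the limit of detection in growth medium, with 21, 25 and 17 counts in GM replicates 1, 2 and 3, or 0.506, 0.601 and 0.448 CPM. The 95% Poisson intervals of these counts, which cover counting error only, spanned 9.90 to 36.9 counts. In DM replicates 1, 2 and 3 it held 250, 297 and 338 counts, or 7.40, 8.12 and 9.13 CPM. Even the lowest DM sample, at 7.40 CPM, stood far above the highest GM sample, at 0.601 CPM. The means were 0.519 ± 0.0770 and 8.22 ± 0.871 CPM, a 15.7-fold rise with a log2 fold change of 3.97 (SE 0.20, adjusted p = 5.87e-08 from edgeR), and 2.09% of tested genes had a larger one.

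PAX7 (ENSBTAG00000014967, chromosome 2, 134512629 to 134616219, minus strand), the factor of satellite cells, was nearly equal in the 3 GM samples. These held 774, 762 and 702 counts for replicates 1, 2 and 3, or 18.7, 18.3 and 18.5 CPM. DM replicates 1, 2 and 3 held 415, 400 and 226 counts, or 12.3, 10.9 and 6.11 CPM. All DM samples were lower, DM replicate 3 the lowest by a wide margin. The mean was 18.5 ± 0.174 CPM in GM samples and 9.77 ± 3.25 CPM in DM samples. The log2 fold change of -0.92 (SE 0.20, adjusted p = 0.00232 from edgeR) stayed under the fold minimum, so PAX7 was not called. It was called when only library size was scaled, without TMM (log2 fold change -1.02) and without DM replicate 1 (-1.11, adjusted p = 0.00175), and was -0.66 (SE 0.10) without DM replicate 3. The DM samples varied by 33.2%, where counting alone would give 5.37%, whereas the GM samples varied by 0.942%, less than the 3.66% of counting.

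PAX3 (ENSBTAG00000009950, chromosome 2, 111129286 to 111229639, minus strand), the factor of embryonic muscle progenitors, was barely detected. GM replicates 1, 2 and 3 held 4, 6 and 2 counts, or 0.0964, 0.144 and 0.0527 CPM, and the DM samples held none. The 95% Poisson intervals of the GM counts spanned 0.242 to 13.1 counts. Setting 12 counts over the GM samples against a limit of 3 counts over the DM samples gave a 3.55-fold lower level in DM samples. That value takes the GM counts as exact and leaves out their counting error, so it is not a firm lower bound. edgeR called it (adjusted p = 0.0203), but DESeq2 gave an adjusted p of 0.0728 and a test against a fold change of 2 gave 0.0863. Without GM replicate 1 or without GM replicate 2, PAX3 fell under the minimum count and was not tested. The call thus rested on very few reads and on the choice of tool.

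**Figure D2:**
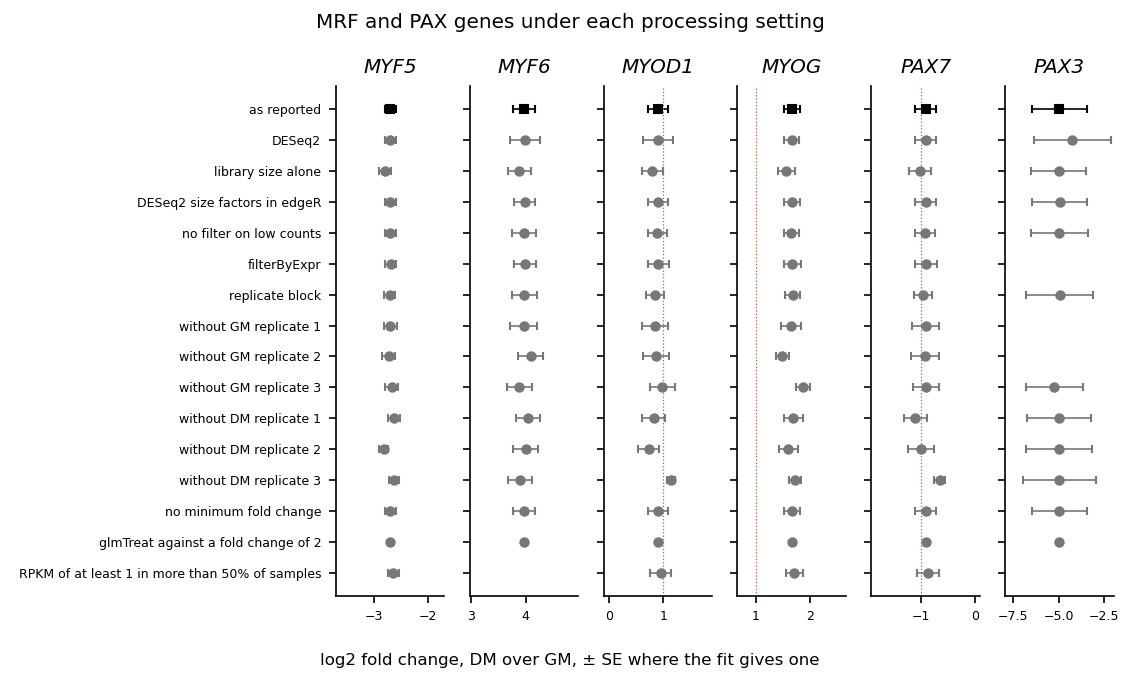
Log2 fold change of DM over GM (x axis, a separate range per gene) for each of the 6 genes as reported (squares) and under each alternative (circles), with bars of ± SE where the fit gives one. Dotted red lines mark the fold minimum in the panels whose range holds it, those of MYOD1, MYOG and PAX7. MYF5, MYF6 and MYOG stayed past the fold minimum, MYOD1 (0.73 to 1.14) and PAX7 (-1.11 to -0.66) lay on both sides of it, and PAX3 has no point where it was not tested.

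Each of the 6 genes had 1 transcript in the mRNA table, with the same counts as the gene, so these rows carry no second measurement. Their log2 fold changes were -2.72 for MYF5, 0.88 for MYOD1, 1.64 for MYOG, 3.96 for MYF6, -0.94 for PAX7 and -4.96 for PAX3. The same 4 were called by edgeR, where 25.6% of all 16352 tested mRNA transcripts were called in either direction. None of the 6 gene intervals overlaps that of another listed gene.

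Per length, the order of the 6 genes differed between the groups. In GM samples the mean RPKM was 74.8 for MYF5, 37.8 for MYOG, 18.0 for MYOD1, 12.6 for PAX7, 0.531 for MYF6 and 0.0583 for PAX3. This order held in each GM sample, and no neighbours in it overlapped. In DM samples the order was MYOG at 112 RPKM, MYOD1 at 31.3, MYF5 at 10.8, MYF6 at 7.87, PAX7 at 6.22 and PAX3 at 0. Here the neighbours MYF6 and PAX7 overlapped, with MYF6 above PAX7 in 2 of 3 samples, and no other neighbours did. MYOG thus moved from the second place to the first, and MYF5 from the first to the third.

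The summed level of the 4 MRF genes overlapped between the groups, while the shares of 3 of them did not. GM replicates 1, 2 and 3 held a summed RPKM of 130.0, 117 and 146, and the corresponding DM samples 156, 185 and 143. The groups overlapped, and the ratio of the means was 1.23 (131 ± 14.4 in GM against 161 ± 21.7 in DM; exact two-sided permutation test p = 0.200, where the smallest p of 3 against 3 is 0.1). Within this sum the share of MYF5 went from 57.3 ± 3.65% in GM samples to 6.65 ± 0.461% in DM samples, a difference of -50.6 percentage points. The share of MYOG went from 28.5 ± 4.15% to 69.3 ± 2.95%, a difference of 40.7 points, and that of MYF6 from 0.413 ± 0.105% to 4.95 ± 1.03%, a difference of 4.54 points. For these 3 genes the groups did not overlap, and the exact permutation p was 0.1 (adjusted over the 4 genes, 0.133), the smallest this design allows. MYOD1 made up 13.1, 14.5 and 13.7% of the sum for GM replicates 1, 2 and 3 and 21.8, 21.3 and 14.3% for the DM samples (exact permutation p = 0.200). Its share in DM replicate 3 lay within the GM range.

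**Figure D3:**
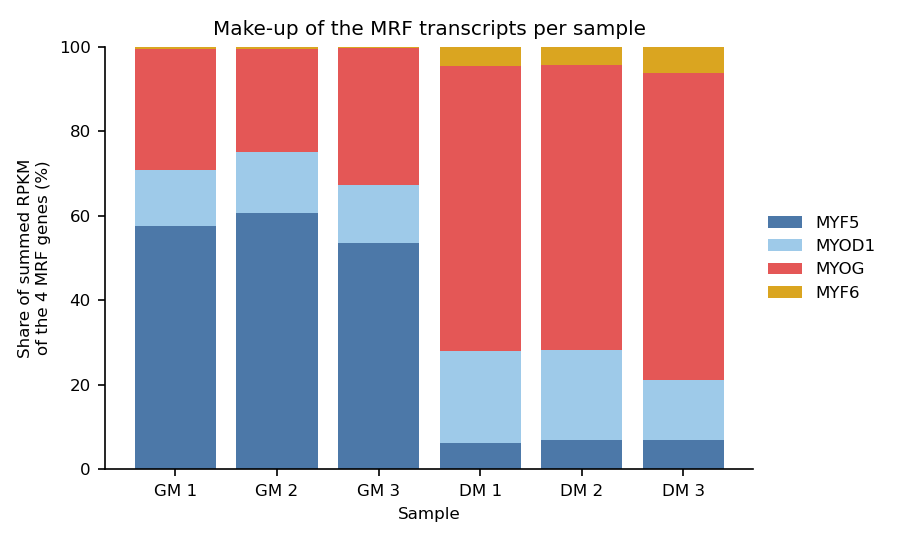
Share of each MRF gene (%, y axis, colors) in the summed RPKM of the 4 MRF genes, one stacked bar for each GM and DM sample. MYF5 was the largest part of every GM bar, at 53.5 to 60.7%, and MYOG the largest part of every DM bar, at 67.5 to 72.7%, while the MYF6 part reached 6.14% in DM replicate 3.

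Ratios between the genes within a sample are free of any scaling between samples. The RPKM ratio of MYOG to MYF5 stood at 0.499, 0.399 and 0.609 for GM replicates 1, 2 and 3 and at 11.0, 9.76 and 10.5 for the DM samples. That of MYOG to MYOD1 was 2.20, 1.67 and 2.38 in GM samples and 3.10, 3.18 and 5.09 in DM samples. MYOG therefore gained on both of the earlier factors, by 4.40 on the log2 scale over MYF5 and by 0.84 over MYOD1. The ratio of PAX7 to MYOD1 was 0.750, 0.732 and 0.632 in GM samples and 0.225, 0.180 and 0.191 in DM samples, where the 3 values lay close together although both genes were lower in DM replicate 3. The mean ratio of MYF6 to MYF5 went from 0.00715 to 0.743, that of MYOD1 to MYF5 from 0.240 to 2.90, and that of PAX7 to MYOG from 0.348 to 0.0556. For all 6 ratios the groups were apart, with an exact two-sided permutation p of 0.1 each (0.1 after adjustment over the 6). All but MYOG to MYOD1 pair a gene wholly higher in DM samples with one wholly lower. Their separation thus followed from the single genes and is no further support.

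DM replicate 3 differed from the mean of DM replicates 1 and 2 by -0.85 in log2 CPM for MYOD1 and by -0.93 for PAX7. The differences were -0.18 for MYF5, -0.16 for MYOG and 0.24 for MYF6. The MRF target genes in the same library summed to 17002 CPM, the highest of all, against 11923 and 12486 CPM in DM replicates 1 and 2. Its fibroblast marker sum was the lowest of the DM samples at 98065 CPM, against 123831 and 113306 CPM. Most of that sum was COL1A1, COL1A2 and COL3A1, and the markers did not all follow it. PDGFRA, DCN and LUM were also lowest in DM replicate 3, but FAP, THY1 and TCF7L2 were not. POSTN was highest there, at 354 CPM against 175 and 189 CPM in DM replicates 1 and 2. The part of these differences in the values of MYOD1 and PAX7 was not tested.

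MRF proteins act with partners and against inhibitors, whose genes were compared as lists. The calls of every list below stand beside 15.0% of all tested genes called higher and 10.3% called lower. The E proteins, the dimer partners of the MRFs, were not called in either direction (0 of 3), but they shifted in different directions by less than the fold minimum. Their median log2 fold change was 0.23, against 0.03 for all tested genes. TCF12 went from 149 ± 4.89 to 224 ± 11.1 CPM (log2 fold change 0.59), TCF4 from 53.4 ± 0.462 to 62.7 ± 8.13 CPM (0.23) and TCF3 from 97.5 ± 5.94 to 73.6 ± 4.57 CPM (-0.41). The adjusted p from edgeR was 1.25e-05, 0.0444 and 0.000612, respectively.

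The ID proteins bind E proteins without contacting DNA and so keep them from the MRFs. All 3 listed ID genes had lower values in DM samples, 2 were called lower and none higher, and the median log2 fold change was -1.67. ID1 held 84.9, 117 and 109 CPM in GM replicates 1, 2 and 3 and 10.3, 13.2 and 3.16 CPM in the DM samples. It fell by 3.55 on the log2 scale (SE 0.36, adjusted p = 9.02e-06 from edgeR), with DM replicate 3 again the lowest. ID3 fell from 84.5 ± 8.20 to 26.6 ± 10.5 CPM (log2 fold change -1.67, adjusted p = 0.000127 from edgeR). ID2 went from 69.1 ± 2.52 to 40.1 ± 3.24 CPM (-0.79), which did not reach the fold minimum, and ID4 was not listed by symbol.

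Of 14 other genes known to restrain MRF activity, 3 were called lower (21.4%, against 10.3% of all tested genes) and none higher (median log2 fold change -0.40). At any fold, the adjusted p of edgeR was under 0.05 for 7 with lower and 4 with higher values in DM samples. Among all tested genes these shares were 31.4% and 31.6%, so the number higher is near that share. The list summed to 677 to 708 CPM in GM samples and 677 to 750.0 CPM in DM samples. HEY1 and HEYL, which encode repressors downstream of Notch, fell by 1.52 and 1.25 on the log2 scale, from 8.72 ± 0.474 to 3.05 ± 0.104 CPM and from 48.1 ± 0.888 to 20.2 ± 3.21 CPM. MDFI, an inhibitor that binds MRF proteins, fell by 1.04, from 82.4 ± 8.75 to 40.1 ± 3.11 CPM. Of the remaining 11, the log2 fold changes lay between -1.05 and 0.92.

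Among 11 tested factors that act upstream of the MRF genes, 3 were called higher and none lower (median log2 fold change 0.17). PITX3, a homeobox factor that is expressed in differentiating muscle, rose from 0.408 ± 0.119 to 5.34 ± 1.66 CPM (log2 fold change 3.70). EYA4, a transcriptional coactivator, rose from 9.38 ± 1.03 to 30.6 ± 5.92 CPM (1.70), and NFIX, a factor of the fetal muscle program, from 42.8 ± 3.77 to 90.9 ± 7.12 CPM (1.09). The adjusted p from edgeR was 2.57e-06, 2.6e-06 and 1.35e-06, respectively.

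The MEF2 factors, which bind muscle promoters together with the MRFs, were called higher for 2 of 4 genes and lower for none (median log2 fold change 1.27). MEF2C held 5.69, 3.15 and 5.06 CPM in GM replicates 1, 2 and 3 and 56.6, 67.4 and 102 CPM in the DM samples. It rose by 4.02 on the log2 scale (SE 0.25, adjusted p = 2.49e-07 from edgeR), and DM replicate 3 was the highest. MEF2B rose from 0.601 ± 0.0870 to 2.58 ± 0.376 CPM (2.10). MEF2A went from 83.5 ± 5.76 to 114 ± 5.06 CPM (0.45) and MEF2D from 65.8 ± 1.93 to 56.9 ± 1.72 CPM (-0.21), and neither was called.

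The 18 chromatin and DNA-binding cofactors moved both ways, 2 called higher (11.1%) and 3 lower (16.7%), near the 15.0% and 10.3% of all tested genes, with -0.31 as the median log2 fold change. The 3 with the largest change were all lower in DM samples. EZH2, the methyltransferase of Polycomb complex PRC2, fell from 134 ± 3.55 to 30.9 ± 3.30 CPM (log2 fold change -2.12, adjusted p = 1.26e-08 from edgeR), with values of 132 to 138 CPM in GM samples and 27.1 to 33.4 CPM in DM samples. SUV39H1, a methyltransferase of histone H3 that represses MRF targets, fell by 1.75 on the log2 scale, and SMARCA4, an ATPase of SWI/SNF remodelers, by 1.29. The calls among the cofactors were 1 higher and 4 lower without DM replicate 3.

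Genes known as targets of the MRFs rose for the most part. Of 29 in the list, 27 were tested, 22 were called higher and none lower, and the median log2 fold change was 2.94. The perinatal myosin heavy chain gene MYH8 held 2.07, 1.18 and 2.77 CPM in GM replicates 1, 2 and 3 and 253, 262 and 359.6 CPM in the DM samples, a log2 fold change of 7.19 (SE 0.24, adjusted p = 5.79e-09 from edgeR). CKM, the muscle creatine kinase, rose from 1.19 ± 0.537 to 94.9 ± 10.9 CPM (6.32), and MYL1, a fast myosin light chain, from 3.84 ± 1.41 to 289.5 ± 63.3 CPM (6.24). The other 5 tested targets, DES, CDH15, CHRNB1, CHRNE and RB1, were not called, and their log2 fold changes ran from -0.53 to 0.16. They are named as the whole remainder, after their values were seen. Reads of the myosin heavy chain genes can be shared between similar copies, so the value of MYH8 is uncertain to that extent.

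These targets summed to 4328, 3670.4 and 4676 CPM for GM replicates 1, 2 and 3. Within the GM samples this is the order of the MYOG values of 52.3, 39.9 and 66.6 CPM, with GM replicate 3 the highest and GM replicate 2 the lowest for both. In DM samples the orders differed, since the target sum was highest in DM replicate 3 and MYOG in DM replicate 2. With 3 samples per group these orders are a description and were not tested.

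Other genes of satellite cells and PAX7-positive progenitors were mixed. Of 11 tested, 1 was called higher and 3 lower, and the median log2 fold change was -0.58. MET, the receptor of hepatocyte growth factor, fell from 121 ± 4.90 to 13.6 ± 3.59 CPM (log2 fold change -3.15, adjusted p = 5.61e-08 from edgeR), through 121, 116 and 126 CPM in GM samples and 14.6, 16.7 and 9.67 CPM in DM samples. The laminin receptor subunit ITGA7 fell by 1.96 and the proteoglycan SDC4 by 1.48 on the log2 scale. MET was thus lowest in the same DM library as PAX7.

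The other 7 PAX genes were at low levels. PAX2, PAX4 and PAX5 were under the minimum count, and of the 4 tested, 3 were called higher and none lower (median log2 fold change 1.73). PAX1 went from 0.458 ± 0.182 to 1.26 ± 0.571 CPM (log2 fold change 1.45, adjusted p = 0.0167 from edgeR), with an overlap between the groups, since DM replicate 3 held 0.622 CPM and GM replicate 1 held 0.651 CPM. The summed CPM of the 4 tested genes ran from 4.72 to 4.83 in GM samples, against 8.05 to 12.0 in DM samples, whereas both PAX3 and PAX7 were lower in DM samples. Most of this sum was PAX8, named after its values were seen. It went from 3.95 ± 0.235 to 7.04 ± 1.47 CPM (0.83) and was not called. The other called genes, PAX6 and PAX9, had means of only 0.851 and 0.769 CPM in DM samples.

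**Figure D4:**
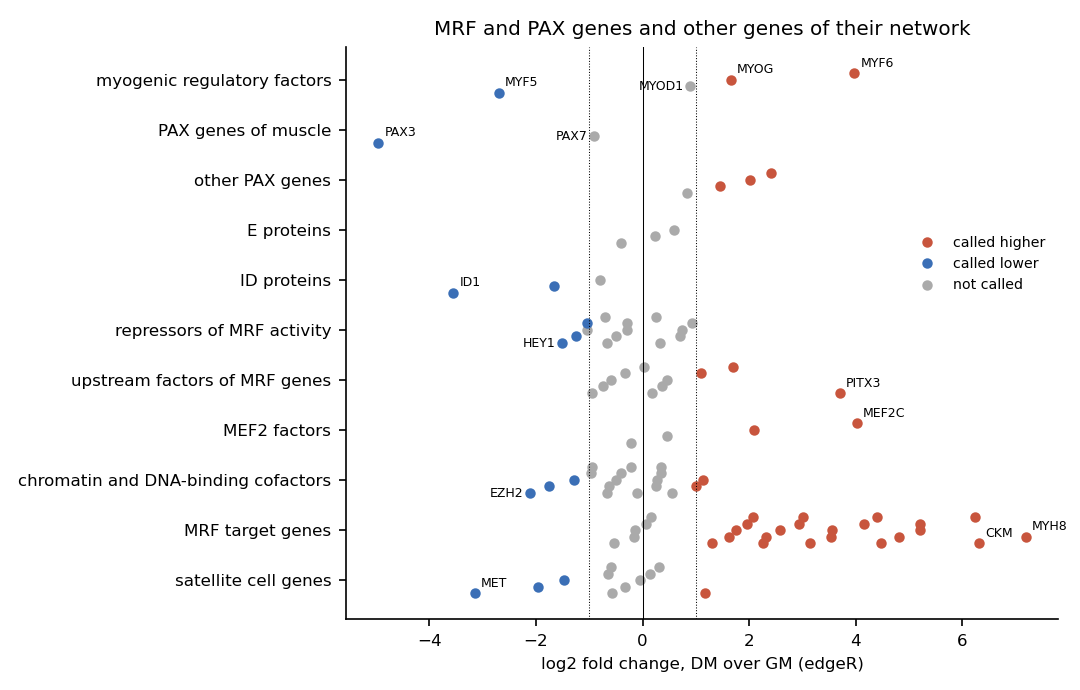
Log2 fold change of DM over GM from edgeR (x axis) for the MRF and PAX genes and for each tested gene of the other lists (rows, points spread vertically for display), colored by call, with dotted lines at the fold minimum. Targets of the MRFs lay to the right, up to MYH8 at 7.19, while the ID genes lay to the left, down to ID1 at -3.55, and the E proteins stayed between the dotted lines.

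Markers of other cell types were compared beside these results, again with 15.0% of all tested genes called higher and 10.3% called lower. The fibroblast list had none of its 10 genes at 0 in either group. Its sum ran from 35817 to 36594 CPM in GM samples, against 98065 to 123831 CPM in DM samples, and 7 of its 10 genes were called higher and none lower. Without DM replicate 3, 7 were called higher and 1 lower. COL1A1 rose from 15287 ± 97.9 to 44328 ± 2747 CPM and COL3A1 from 8298 ± 191 to 39251 ± 7036 CPM. POSTN, named after its values were seen, went from 456 ± 13.8 to 239 ± 99.8 CPM (log2 fold change -0.93, adjusted p = 0.00316 from edgeR) and had a log2 fold change of -1.32 without DM replicate 3. The part of non-myogenic cells in the levels of the MRF and PAX genes was not tested. The other lists were low or level. The endothelial list (TEK, KDR) summed to 4.04 to 4.78 CPM in GM and 5.15 to 6.13 CPM in DM samples, with 1 of 6 genes called higher and 3 lower. The adipocyte list (CIDEC, PPARG) summed to 6.73 to 8.10 and 7.16 to 8.57 CPM, with 2 of 5 called higher and 1 lower. The immune list (CD14, CD68) summed to 5.93 to 7.55 and 7.00 to 13.3 CPM, with 1 of 3 called higher and 1 lower, and the Schwann cell list (S100B, SOX10) to 1.08 to 2.08 and 1.48 to 1.97 CPM, with 0 of 2 called. The immune genes PTPRC, CD3E and CD79A were under the minimum count, and 0 of the 6 smooth muscle and pericyte genes (ACTA2, CSPG4) were called, with sums of 1275 to 1474 and 1451 to 1752 CPM. Of the markers of myogenic cells, DES stood at 2274 ± 103 CPM in GM samples and 2051 ± 323 CPM in DM samples. CDH15 went from 112 ± 4.91 to 77.3 ± 2.97 CPM (log2 fold change -0.53) and was not called. ITGA7 went from 253 ± 13.2 to 64.8 ± 8.81 CPM (-1.96) and was called lower. DES, CDH15, ITGA7, MYF5, MYOD1, MYOG and PAX7 were all measured in every sample.

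Genes whose pattern over the 6 samples was nearest to that of each MRF or PAX gene were found by the root mean square distance of log2 CPM centred over the 6 samples, among 8059 other genes (8060 for MYF6) with a mean of at least 10 CPM. PAX3 was left out for its low counts. Nearest to MYF5 were EXO1 (distance 0.0541), BIRC5 (0.0803) and CEP55 (0.105), whose background is in DNA repair and cell division. EXO1 held 18.8, 17.5 and 18.9 CPM in GM replicates 1, 2 and 3 and 2.66, 3.06 and 2.57 CPM in the DM samples. Nearest to MYOG were ANKRD1 (0.103), VAV3 (0.111) and ATP6V0A1 (0.124). ANKRD1, a muscle ankyrin repeat protein, held 98.5, 77.9 and 112 CPM in GM samples and 269.6, 331 and 315 CPM in DM samples, with GM replicate 2 the lowest, as for MYOG, to which it was chosen to be near.

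Near to MYF6 were KIF26B (0.146) and the calsequestrin gene CASQ1 (0.158). CASQ1, which encodes a calcium-binding protein of the sarcoplasmic reticulum, ran from 1.71 to 1.85 CPM in GM samples and from 26.7 to 29.3 CPM in DM samples. Nearest to MYOD1 were PROS1 (0.0733), ADGRB2 (0.108) and LAPTM4B (0.111), and nearest to PAX7 were NDRG3 (0.130), MYH14 (0.155) and SMAD9 (0.166). All 6 of these were lowest among the DM samples in DM replicate 3, which follows from choosing them for their likeness to MYOD1 and PAX7. PROS1, for example, held 114, 120.1 and 67.9 CPM in DM replicates 1, 2 and 3. Among the 5 compared genes themselves, MYOD1 and MYOG were the nearest pair (0.504) and MYF5 and MYF6, neighbours on the chromosome, the farthest (3.29).

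**Figure D5:**
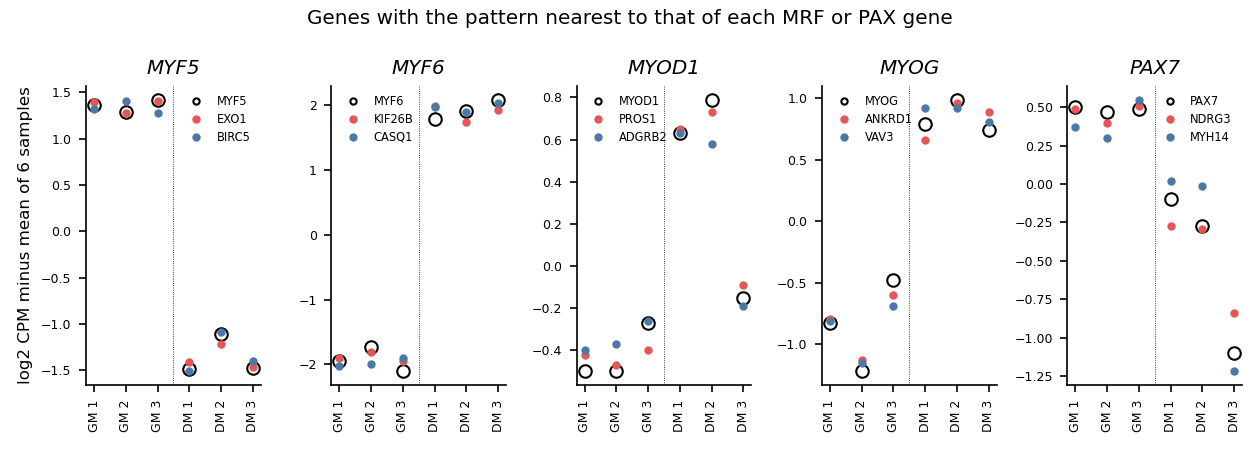
Log2 CPM minus the mean of the 6 samples (y axis) in each GM and DM sample (x axis) for 5 of the MRF and PAX genes (open circles) and the 2 genes nearest to each (filled circles). The dotted line parts the groups, and in the panels of MYOD1 and PAX7 all genes, chosen for this likeness, are lowest among the DM samples in DM replicate 3.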

How the data were processed

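PolyA-Seq libraries of 3 GM and 3 DM samples were prepared and sequenced by RiboBio. The authors' methods state that reads were aligned to the buffalo genome with HISAT2. Raw counts per gene and per mRNA transcript were deposited without normalization. The deposited counts are listed by cattle Ensembl genes, and how they relate to that alignment is not stated. They cover fewer genes and mRNA transcripts than the paper reports. Comparisons of RPKM between genes rest on the deposited lengths, whose genome is not named. The submitters' processing notes also name Bowtie 0.12.2 and mouse builds, with no role given. The deposited RPKM equal the counts per kilobase of the deposited length per 1000000 summed gene counts. Whether counting used strand is not stated in the sources used here.

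Groups were taken from the sample titles. Genes (15576 of 24616) and mRNA transcripts (16352 of 22118) with at least 10 counts in total were tested with edgeR 4.0.16 in R 4.3.3 (TMM, glmQLFit, glmQLFTest, Benjamini-Hochberg adjustment over all tested features), and called by the thresholds of the study (log2 fold change beyond 1 in either direction, adjusted p under 0.05) with its tool DESeq2 (1.42.0) as an alternative. The CPM used here were computed from the deposited counts and TMM factors. Standard errors came from the F statistic. Shares, sums and ratios of RPKM were compared by exact two-sided permutation tests over samples (scipy 1.17.1). The edgeR steps were tested on simulated data.

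The 6 genes, the other gene lists and the tests were chosen with earlier results of these data known. Named were every MRF and PAX gene, all genes of lists of 4 or fewer, the 3 called genes of largest change with a group mean of at least 1 CPM from longer lists, the 2 most abundant genes of each marker list and the 3 genes nearest in pattern; others were named after their values were seen, and a few genes that these rules cover are not reported here. Alternatives were DESeq2, other scalings, filters and thresholds, a replicate block, shares of raw counts and each sample left out. The authors' lists of differential features hold fold changes, p-values and q-values and were not used, nor was the ncRNA table. MYMK was matched by its older symbol TMEM8C.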

Additional observations from a re-analysis of the deposited data

How the results depend on the processing

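The 6 genes had 11 to 15 alternatives each, 85 log2 fold changes in all, and none of these changed sign. The setting without a fold minimum and the test against a fold change of 2 use the reported fit. Their log2 fold changes are among the 85 but could not differ from the reported ones. MYF5 stayed between -2.82 and -2.63, MYF6 between 3.88 and 4.09, MYOG between 1.49 and 1.86, MYOD1 between 0.73 and 1.14, PAX7 between -1.11 and -0.66 and PAX3, where tested, between -5.24 and -4.25. MYOD1 and PAX7 lie beside the fold minimum, so the settings that move them across it decide their calls. The genes called higher numbered 2 and came to 2 to 3 when each sample was left out, and to 1 under the study's rule of RPKM 1 or more in over 50% of samples, which MYF6 does not meet. The genes called lower numbered 2 and came to 1 with DESeq2, with filterByExpr, with the test against a fold change of 2 and with the RPKM rule, each of which lost PAX3. Leaving out each sample gave 1 to 3, with 1 without GM replicate 1 or GM replicate 2, where PAX3 fell under the minimum count, and 3 without DM replicate 1, where PAX7 was called. The mRNA transcripts called lower likewise went from 2 to 1 with DESeq2 and with filterByExpr, and to 1 to 3 with each sample left out. On raw counts in place of RPKM the difference in the MYF6 share was 3.02 percentage points instead of 4.54. The other lists of the network hold 99 listed genes. Of these, 33 were called higher (31 to 34 under the alternatives), 22 of them MRF targets, and 11 lower (10 to 14). Among all tested genes 15.0% were called higher and 10.3% lower, so the number lower is near that share. Scaling by library size alone put the median of all tested genes at -0.07 in place of 0.03 on the log2 scale.

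Samples with the same replicate number did not deviate together (correlations of -0.00756, -0.0218 and -0.0105), so the numbers were not taken as pairs. With the replicate number as a block, the log2 fold changes were -2.71 for MYF5, 3.97 for MYF6, 0.85 for MYOD1, 1.68 for MYOG, -0.97 for PAX7 and -4.94 for PAX3, and the same 4 genes were called by edgeR.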

Other observations

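MYF5 and MYF6 lie 7441 bases apart on the same strand in the positions the tables give, and they moved in opposite directions. The genes on either side were looked up after the values of MYF5 and MYF6 had been seen. PTPRQ, which lies 24476 bases from MYF6, held 540, 419 and 439 counts in GM replicates 1, 2 and 3 and 89, 153 and 135 counts in the DM samples. Its mean fell from 11.6 ± 1.47 CPM to 3.49 ± 0.785 CPM (log2 fold change -1.72, SE 0.18, adjusted p = 1.2e-05 from edgeR), the direction of MYF5 and not of MYF6. LIN7A, which lies 66728 bases from MYF5 on the other strand, went from 2.70 ± 0.0900 to 1.76 ± 0.869 CPM (log2 fold change -0.61, adjusted p = 0.108 from edgeR). In the buffalo RefSeq annotation the 4 genes stand in the same order of neighbours, LIN7A, MYF5, MYF6 and PTPRQ.

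Genes beside the other MRFs were looked up in the same way. KCNC1, 14155 bases from MYOD1, was barely detected, with 1, 4 and 0 counts in GM replicates 1, 2 and 3. It held 3, 4 and 16 counts in the DM samples and was not called (log2 fold change 2.28, adjusted p = 0.0693 from edgeR). OTOG, 75520 bases from MYOD1 on the same strand, rose from 3.16 ± 1.08 to 18.1 ± 1.90 CPM (log2 fold change 2.52, adjusted p = 3.01e-06 from edgeR), and it was not lower in DM replicate 3, where it held 713 counts against 538 and 701 in DM replicates 1 and 2. PPFIA4, 7270 bases from MYOG, stood at 9.42 ± 0.0850 and 10.2 ± 1.24 CPM (log2 fold change 0.12, adjusted p = 0.433 from edgeR). Of the listed genes on either side of PAX7, TAS1R2 held at most 1 count in any sample. KLHDC7A, 160252 bases away, fell from 2.01 ± 0.178 to 0.573 ± 0.312 CPM (-1.81, adjusted p = 0.00228 from edgeR), with 8 counts in DM replicate 3 against 24 and 29 in the other DM samples.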
